A study of Mus musculus with 24 samples.

Results

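Interleukin 4 (IL4) and dexamethasone (Dex, a synthetic glucocorticoid) are both used to bring macrophages into an anti-inflammatory state, and here the chromatin of the 2 states was compared directly in wild-type cells. The comparison rests on 8 of the 24 libraries of the series, 4 treated with IL4 and 4 with Dex, and on 119508 tested peaks of 144411 in all. The assay, ATAC-seq, uses a transposase to cut and tag accessible DNA, and each value is the number of reads in a peak. The cells were macrophages grown for 5 days in L-cell conditioned media from the bone marrow of male C57BL/6 mice 8 to 10 weeks old. Wild type (WT) means LysM-Cre+/+; GRIP1wt/wt, so these cells also carry the recombinase driven by the myeloid gene LysM. The IL4 group received 10 ng/ml IL4 and the Dex group 100 nM Dex, each for 24 h. Further libraries serve as a reference: 4 WT vehicle libraries, and 4 IL4 and 4 Dex libraries of the genotype LysM-Cre+/+; GRIP1fl/fl (KO), in which Cre acts on the floxed gene of the coactivator GRIP1 (Ncoa2). The vehicle titles also give 24 h, while their treatment label reads an hour longer. Whether replicates are separate mice or separate cultures is not in the labels, so p-values measure only the spread between these libraries.

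IL4 binds its receptor at the cell surface, which activates JAK kinases and the transcription factor STAT6. STAT6 enters the nucleus and binds palindromes of TTC and GAA, and it acts with the macrophage factors PU.1 and C/EBP and with factors that IL4 itself induces, such as EGR2, PPARG and IRF4. Dex crosses the membrane and binds the glucocorticoid receptor (GR, Nr3c1), which moves to the nucleus, binds palindromes built of AGAACA and TGTTCT, and recruits coactivators such as GRIP1. Genes such as Fkbp5, Tsc22d3, Per1 and Zbtb16 are direct GR targets in many cell types, while Arg1, Retnla and Chil3 are the classic genes of mouse macrophages exposed to IL4.

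The promoter sequences of 4 genes are given as examples and do not stand for all called peaks at start sites. They are the 250 bases before a RefSeq start site (GRCm38.p6, the release behind mm10), 5′ to 3′ on the strand of the gene. Capitals mark every match on either strand to one of 13 motifs: the GR monomer site AGAACA and the GR palindrome, STAT6, AP-1, C/EBP, PU.1, EGR, KLF, NF-kB, IRF, RUNX, MITF/TFE and CTCF. Retnla and Klrb1a stand under peaks higher with IL4, and Usp54 and Fpr1 under peaks higher with Dex.
Retnla, chr16:48842359-48842608, plus strand: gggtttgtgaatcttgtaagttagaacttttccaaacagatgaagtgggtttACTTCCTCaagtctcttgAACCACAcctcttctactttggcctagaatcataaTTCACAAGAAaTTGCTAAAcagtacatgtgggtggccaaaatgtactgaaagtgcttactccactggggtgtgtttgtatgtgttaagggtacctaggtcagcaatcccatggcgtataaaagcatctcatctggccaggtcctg
Klrb1a, chr6:128622935-128623184, minus strand: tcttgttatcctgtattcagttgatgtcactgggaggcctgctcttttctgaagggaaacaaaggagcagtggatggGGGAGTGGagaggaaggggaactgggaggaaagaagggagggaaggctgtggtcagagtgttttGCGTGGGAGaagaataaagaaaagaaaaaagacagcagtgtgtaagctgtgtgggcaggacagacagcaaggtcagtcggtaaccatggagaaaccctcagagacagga
Usp54, chr14:20618355-20618604, minus strand: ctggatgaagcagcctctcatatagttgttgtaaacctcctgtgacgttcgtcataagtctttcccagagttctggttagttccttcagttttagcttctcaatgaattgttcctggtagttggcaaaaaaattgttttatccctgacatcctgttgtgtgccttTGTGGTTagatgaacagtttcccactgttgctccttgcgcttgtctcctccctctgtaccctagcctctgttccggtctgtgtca
Fpr1, chr17:17883940-17884189, minus strand: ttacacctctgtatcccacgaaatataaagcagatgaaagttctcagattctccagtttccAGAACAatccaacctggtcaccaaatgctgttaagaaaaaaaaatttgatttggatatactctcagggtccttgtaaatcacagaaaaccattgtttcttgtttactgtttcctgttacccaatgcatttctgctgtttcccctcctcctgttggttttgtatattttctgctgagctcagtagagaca
The Retnla promoter holds a STAT6 match 145 bases before the start site and a C/EBP match 134 bases before it, with a PU.1 and a RUNX match further upstream. The Klrb1a promoter holds an EGR match 109 bases and a KLF match 173 bases before the start. The Usp54 promoter holds only a RUNX match and the Fpr1 promoter only a GR monomer site. These are matches of letters, and no binding was measured here.

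The 8 libraries held between 5820149 and 21939330 reads in peaks. In a principal component analysis of these 8 libraries the first component took 63.0% of the variance and set all 4 IL4 libraries on one side and all 4 Dex libraries on the other. The second component took 11.1% and set Dex replicate 2 apart, the shallowest library, in which 2.57% of the peaks had no read. Without it the counts of called peaks became 29317 toward IL4 and 27196 toward Dex, against 28951 and 28075 with it. All 8 macrophage genes on the marker list (Spi1, Csf1r, Itgam, Adgre1, Cd68, Lyz2, Fcgr1, Mertk) had a peak within 1 kb of a start site. Among 11 T and NK cell markers, Cd3e, Cd3g, Cd4, Cd8a, Lck, Ncr1 and Cd247 had none, and among 8 B cell markers Cd79a, Pax5, Ms4a1 and Blk had none. For neutrophils, Ly6g, Elane, Mpo and Retnlg of 11 markers had none. The summed level of the neutrophil promoter peaks ran from 41.7 to 48.8 CPM (reads scaled to a fixed library total) with IL4 and from 50.2 to 63.5 with Dex, and that of the macrophage promoter peaks from 211 to 223 and from 270 to 298. Peaks at T and NK cell marker promoters summed to 53.0 to 55.8 CPM with IL4 and 44.2 to 51.4 with Dex, and those of B cell markers to 12.7 to 16.9 and 11.9 to 13.1. Among the T and NK promoter peaks, Klrb1c (21.3 CPM with IL4, 9.14 with Dex) and Cd2 (2.54 and 1.73) were called higher with IL4. The Gata3 promoter peak (26.4 and 31.2) was called higher with Dex. Dendritic, fibroblast, mast cell or basophil, and erythroid or megakaryocyte markers had such a peak at 7 of 11, 2 of 8, 5 of 8 and 3 of 8 genes. The sums were 48.0 to 56.4 CPM with IL4 and 57.1 to 64.2 with Dex for dendritic and 6.77 to 8.42 and 3.67 to 5.39 for fibroblast markers. Of the 2 fibroblast peaks, that of Pdgfrb (5.82 CPM with IL4, 3.13 with Dex) was called higher with IL4. That of Thy1 (1.52 and 1.39) was not called. For mast cell or basophil markers the sums were 12.4 to 15.9 and 14.7 to 16.3, and for erythroid or megakaryocyte markers 51.9 to 54.0 and 47.1 to 53.6. The part of these levels in the results was not tested. In bulk cells, a change in the share of a cell type and a change per cell cannot be told apart.

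IL4 and Dex left the chromatin of these cells different at 57026 peaks, 47.7% of those tested (edgeR quasi-likelihood test, Benjamini-Hochberg adjusted p below 0.05). The calls divided almost evenly, 28951 (24.2%) toward IL4 and 28075 (23.5%) toward Dex, but their sizes differed. A change of 2-fold or more was seen at 13496 peaks higher with IL4 (11.3%) and at 2527 higher with Dex (2.11%). A 4-fold change was seen at 3193 and 215 peaks, and an 8-fold change at 557 and 44. The median size was 0.95 on the log2 scale for the peaks higher with IL4 and 0.48 for those higher with Dex, and 64.6% of the latter lay under 1.5-fold against 21.0% of the former. The peaks higher with IL4 had a median length of 423 bases and a median level of 2.90 CPM. Both were near those of all tested peaks (469 bases and 3.27 CPM). Those higher with Dex had a median length of 722 bases and a median level of 10.8 CPM. Scaling by total counts alone moved the median of all peaks from -0.03 to 0.08 and the split to 34138 higher with IL4 and 20158 higher with Dex. At 41043 peaks (34.3%) the 95% interval of the difference lay within 1.5-fold in either direction.

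**Figure D1:**
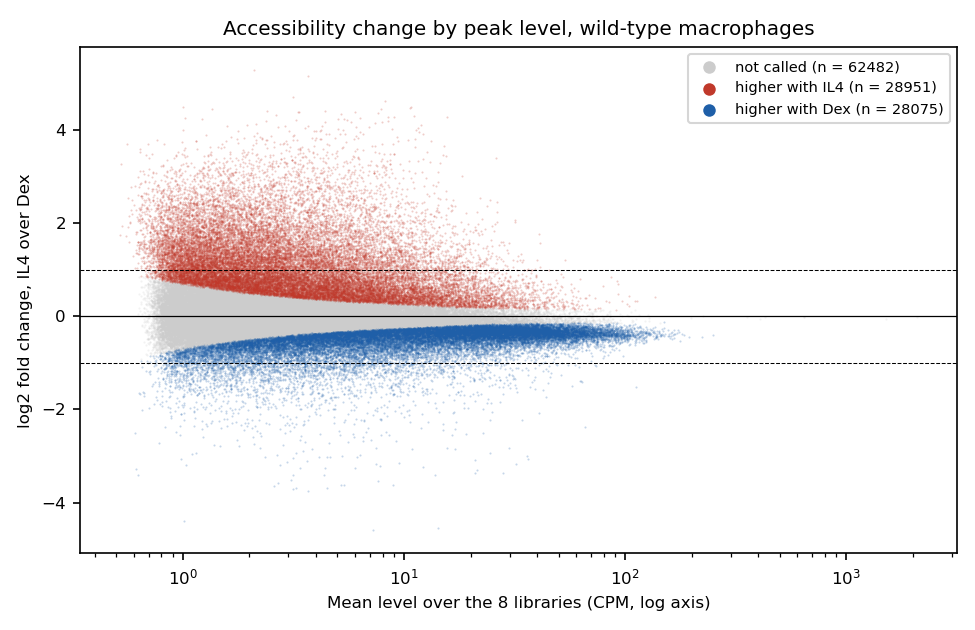
Each point is 1 of 119508 tested peaks, plotted by its mean level over the 8 WT libraries (CPM, log axis) and its log2 fold change of IL4 over Dex; dashed lines mark 2-fold. Large changes upward (13496 peaks at 2-fold or more, red) outnumber large changes downward (2527 peaks, blue), and the blue calls at high levels form a band close to 0.

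The peaks with the largest change toward IL4 were nearly closed with Dex. A peak 94.3 kb before the start site of Fam46a (a terminal nucleotidyltransferase gene) had 4.77, 3.49, 4.55 and 3.43 CPM in the IL4 libraries and 0.07, 0.367, 0 and 0.0928 CPM in the Dex libraries. Its log2 fold change was 5.29 ± 0.36 (SE; edgeR adjusted p = 3.14e-18). The rule that named the largest changes takes only peaks whose groups do not overlap, which was so at 41.3% of all tested peaks. In Smurf1, a ubiquitin ligase gene, a peak 3.85 kb after the start site had 6.41, 5.82, 7.78 and 8.61 CPM with IL4 and 0.42, 0.183, 0.0816 and 0.0928 CPM with Dex. Its log2 fold change was 5.16 ± 0.28 (edgeR adjusted p = 6.18e-22). Next came peaks near the pseudogene Tyms-ps (4.71) and in Ptk2 (4.62), which encodes focal adhesion kinase. They were followed by peaks near Otos (4.49) and Zc3h12a (4.47), the gene of the RNase Regnase-1 that degrades inflammatory mRNAs, and then by peaks in Tex9 (4.44) and Ntm (4.44), near Kcnj2 (4.41) and in Slc36a3 (4.40), all on the log2 scale. The peak near Zc3h12a lay 50.2 kb before its start site, with 18.7, 21.2, 21.8 and 20.1 CPM with IL4 and 0.84, 0.734, 0.898 and 1.02 CPM with Dex. In the vehicle libraries it had 1.30 to 1.95 CPM, so these cells were close to the Dex level.

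The peaks with the largest change toward Dex were open with Dex and nearly closed with IL4. The strongest lay far from any listed gene, 252 kb before the start site of Hs6st1, a heparan sulfate sulfotransferase gene. It had 11.8, 13.9, 16.1 and 13.6 CPM with Dex, 0.575, 0.466, 0.708 and 0.555 CPM with IL4 and 0.444 to 0.916 CPM with vehicle, a log2 fold change of -4.60 ± 0.19 (edgeR adjusted p = 1.25e-27). Inside Zbtb16, which encodes the zinc finger repressor PLZF, a peak had 24.2, 32.3, 30.1 and 22.7 CPM with Dex and 1.15, 1.22, 1.01 and 1.11 CPM with IL4. Its log2 fold change was -4.54 ± 0.15 (edgeR adjusted p = 2.05e-30). Peaks near Klhl6 (-3.76), Slc31a2 (-3.72), Dock10 (-3.63) and Ube2s (-3.61) and inside Fmn1 (-3.69), 4930486L24Rik (-3.69), Nr1h4 (-3.64) and Mctp2 (-3.62) followed. Slc31a2 encodes a copper transporter, and its peak lies 0.06 kb before the RefSeq start of the gene, with 4.81 to 8.26 CPM with Dex and 0.303 to 0.582 CPM with IL4. Nr1h4 encodes FXR, a bile acid receptor, Dock10 a guanine nucleotide exchange factor and Fmn1 an actin nucleator. The authors' table of comparisons leaves out 47694 of the tested peaks, of which 13379 have 1000 bases or more. The 3 strongest toward Dex among the peaks it leaves out lay 23.0 kb before Ddit4 (-3.38), inside Cep85 (-3.09), and near Fkbp5 (-3.06). Ddit4 is the gene of the mTORC1 inhibitor REDD1. The Ddit4 peak had 30.7, 47.9, 41.8 and 32.5 CPM with Dex and 2.73 to 5.09 CPM with IL4.

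Genes known to respond to glucocorticoids carried some of the clearest differences. Fkbp5 encodes an immunophilin that holds the receptor in a state of low affinity. Among the peaks of the authors' table, from which each landmark gene's leading peak was taken, its peak with the smallest p lay at chr17:28518014-28518761 (mm10), 0.862 kb before a start site in the authors' table and 32.2 kb before the 5′ end of the RefSeq gene. It had 46.7, 50.6, 56.0 and 51.3 CPM with Dex, 4.60, 4.95, 5.36 and 4.81 CPM with IL4 and 3.74 to 6.11 CPM with vehicle. The log2 fold change was -3.38 ± 0.09 (edgeR adjusted p = 3.86e-35). The peak over the main start of Fkbp5 changed less, from 45.3 to 48.2 CPM with IL4 to 69.5 to 84.0 CPM with Dex (log2 fold change -0.70 ± 0.06). Of 16 Fkbp5 peaks, 12 were higher with Dex, 8 of them by 2-fold or more, and 1 was higher with IL4. Tsc22d3 encodes GILZ, a leucine zipper protein that binds NF-kB and AP-1: 13 of its 15 peaks were higher with Dex and none with IL4, and its peak with the smallest p had 13.8 to 18.2 CPM with Dex against 2.12 to 2.68 CPM with IL4.

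Further targets were also mostly higher with Dex. Cd163, the haemoglobin scavenger receptor, had 7 of 8 peaks higher with Dex, the strongest at 7.14 to 9.30 CPM with Dex and 0.555 to 0.986 CPM with IL4 (log2 fold change -3.40 ± 0.20). Hif3a had 3 of 3 peaks higher with Dex (down to -3.22), and Klf9, a Krüppel-like repressor, had 4 of 4. Per1, a clock repressor, had 3 of 3 but at under 2-fold, with 56.5 to 68.1 CPM with Dex and 34.1 to 36.6 CPM with IL4 at its leading peak. Dusp1, the phosphatase that switches off p38 and JNK, had 7 of 11 higher with Dex, and its leading peak stood at 60.9 to 76.9 CPM with Dex and 27.0 to 34.2 CPM with IL4. Il1r2, the decoy receptor for IL-1, had 6 of 12 peaks higher with Dex and 2 higher with IL4.

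The genes Sgk1 and Mertk, both on the glucocorticoid list, went partly the other way. They were not the only ones of that list. Gadd45a had 11 of 19 peaks higher with IL4 and 1 with Dex. Pik3r1 had 15 and 9 of 47, near the shares over all peaks with a gene (28.2% and 24.3%). Inside Sgk1, a kinase gene, a peak had 5.59, 4.83, 6.57 and 5.09 CPM with IL4 and 1.33, 0.917, 1.55 and 0.557 CPM with Dex (log2 fold change 2.38 ± 0.21; edgeR adjusted p = 8.21e-14). Against vehicle this peak rose with IL4 (1.36 ± 0.21) and fell with Dex (-1.02 ± 0.28). Of the 19 Sgk1 peaks, 6 favoured IL4, also near the share of 28.2% over all peaks with a gene, and 3 favoured Dex. Mertk encodes a kinase receptor with which macrophages engulf apoptotic cells. Its peak with the smallest p among those of the authors' table lay 72.3 kb inside the gene, beside an internal start site in the authors' table, with 9.12, 8.96, 7.58 and 9.53 CPM with IL4 and 2.10, 2.57, 3.35 and 2.83 CPM with Dex (1.69 ± 0.15). The peak over the main start of Mertk was higher with Dex instead, at 47.1 to 50.4 CPM against 31.5 to 38.1 CPM with IL4 (-0.49 ± 0.07). A wide peak inside the gene, 24.5 kb before that internal start site, was also higher with Dex, at 51.5 to 57.2 CPM with Dex and 24.7 to 27.9 CPM with IL4 (-1.04 ± 0.07; edgeR adjusted p = 3.5e-19). This peak is outside the authors' table, and its p is smaller than that of the internal peak, so the leading peak of Mertk turns direction with the table's peaks alone. These last peaks were chosen after their values were seen.

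**Figure D2:**
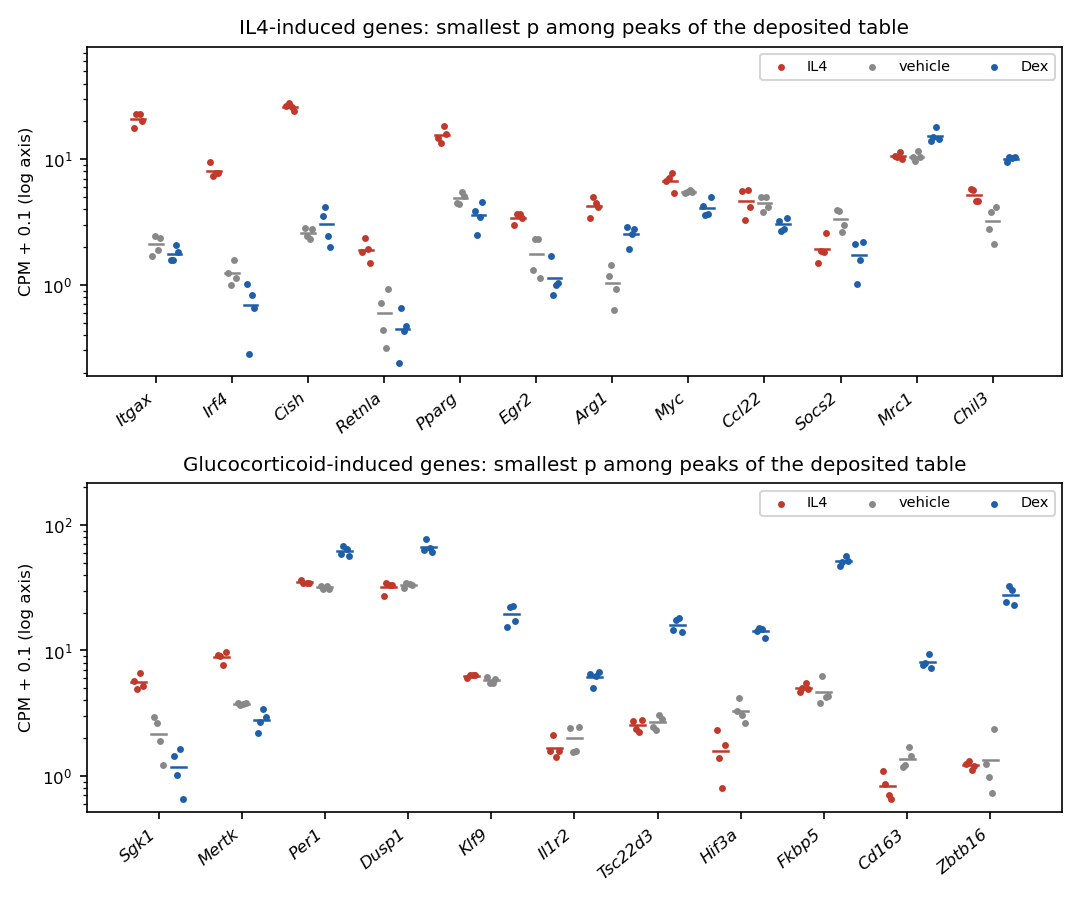
CPM + 0.1 (log axis) of each WT library at the peak with the smallest p in the authors' table, which holds no peak over 999 bases, of 12 genes known to be induced by IL4 (top) and 11 known to be induced by glucocorticoids (bottom), with red IL4, grey vehicle and blue Dex points and bars at the group means. Vehicle sits near Dex at Itgax, Irf4 and Cish and near IL4 at Fkbp5, Zbtb16 and Klf9, while these Chil3 and Mrc1 peaks are higher with Dex and these Sgk1 and Mertk peaks higher with IL4; at Arg1, Chil3 and Mertk, among others, a peak outside that table has a smaller p.

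Among genes known to be induced by IL4, Cish, Itgax and Irf4 had peaks that were wide apart between the groups. Cish encodes a feedback inhibitor of STAT signalling and is a direct STAT target. A peak 11.3 kb after its start site had 26.6, 27.9, 25.8 and 24.1 CPM with IL4 and 3.43, 4.04, 2.37 and 1.90 CPM with Dex (log2 fold change 3.29 ± 0.13; edgeR adjusted p = 6.21e-27), and 4 of the 5 peaks nearest to Cish were higher with IL4. The peak 7.70 kb before Itgax, which encodes CD11c, had 17.7 to 22.9 CPM with IL4 and 1.47 to 1.96 CPM with Dex (3.63 ± 0.14). A peak 82.1 kb after the start site of Irf4, a factor that works downstream of IL4, had 7.28 to 9.45 CPM with IL4 and 0.183 to 0.910 CPM with Dex (3.60 ± 0.21). Pparg, the lipid sensor of alternatively activated macrophages, had 9 of 17 peaks higher with IL4 and 1 with Dex. The Retnla promoter peak, which covers most of the sequence above, had 1.73, 2.27, 1.82 and 1.39 CPM with IL4 and 0.14, 0.55, 0.326 and 0.371 CPM with Dex (2.50 ± 0.34; edgeR adjusted p = 1.21e-08). The groups did not overlap, although the levels were low.

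Arg1, which encodes the arginase that turns arginine to ornithine, had 8 of its 12 nearest peaks higher with IL4 and none higher with Dex. The peak over its start site had 27.0, 30.7, 29.3 and 29.3 CPM with IL4 and 10.9, 12.3, 10.9 and 13.5 CPM with Dex (1.28 ± 0.09). A peak 3.37 kb into the gene had 4.77 to 8.42 CPM with IL4 and 0.42 to 0.734 CPM with Dex (3.43 ± 0.24). Both were chosen after their values were seen. The Arg1 peak that the fixed rule names, 25.4 kb before the start, had 3.29 to 4.95 CPM with IL4, 1.83 to 2.80 CPM with Dex and 0.531 to 1.33 CPM with vehicle. There both treatments were above vehicle (IL4 2.14 ± 0.23, Dex 1.43 ± 0.25), and IL4 was above Dex by 0.72 ± 0.17 (edgeR adjusted p = 4.89e-04).

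Chil3 and Mrc1, 2 further markers of IL4-treated macrophages, carried peaks higher with Dex. Chil3 encodes the secreted lectin Ym1. A peak 3.16 kb before its start had 17.3, 15.96, 16.9 and 18.1 CPM with Dex, 4.36, 3.20, 3.74 and 4.72 CPM with IL4 and 2.21 to 2.97 CPM with vehicle (-2.13 ± 0.12; edgeR adjusted p = 1.29e-21; chosen after its value was seen). The neighbouring peak 5.10 kb before the start, which the rule names, had 9.38 to 10.3 CPM with Dex and 4.54 to 5.67 CPM with IL4 (-0.96 ± 0.12). The peak at the Chil3 start site went the other way, at 3.23 to 5.46 CPM with IL4 and 2.57 to 3.11 CPM with Dex (0.51 ± 0.17; edgeR adjusted p = 0.0128). Of the 7 peaks nearest to Chil3, 2 were higher with IL4 and 2 with Dex, with 1 in each direction at 2-fold or more. Its paralogue Chil4 had a peak 0.597 kb before the start with 1.85 to 3.13 CPM with IL4 and 0.07 to 0.367 CPM with Dex (3.49 ± 0.35). Reads from such close paralogues may be split between them. At Mrc1, the mannose receptor CD206, 2 of 7 peaks favoured IL4 and 2 Dex, and the rule named one higher with Dex (-0.54 ± 0.10). The 1 Socs2 peak of the authors' table had 1.40 to 2.50 CPM with IL4 and 0.917 to 2.09 CPM with Dex, and its difference of 0.03 ± 0.23 did not pass the test (edgeR adjusted p = 0.934).

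At start sites listed in the authors' table, the largest differences toward IL4 were at Klrb1a (4.28 ± 0.17), Atp6v0d2 (4.04 ± 0.16), 1700022A21Rik (3.50), Chil4, Nr2c2ap (3.12) and Mir6977 (3.04, inside Ptprs). Klrb1a belongs to the NK receptor family, and its peak, whose promoter is printed above, had 15.4, 14.8, 18.6 and 15.2 CPM with IL4 and 0.70, 1.28, 1.14 and 0.557 CPM with Dex. Atp6v0d2 encodes a proton pump subunit needed for macrophage fusion, and its peak had 20.1, 21.8, 24.1 and 20.4 CPM with IL4 and 1.54, 2.75, 0.571 and 1.16 CPM with Dex. In both cases the vehicle libraries, at 0.778 to 2.15 and 1.68 to 2.77 CPM, were at the Dex level or slightly above it. Toward Dex the largest were Fkbp5, Usp54 (-1.91 ± 0.12), Nt5c2 (-1.83), Fpr1 (-1.79 ± 0.20), Iqck (-1.76) and Notch4 (-1.72). The Usp54, Nt5c2 and Iqck peaks lie 25.9, 106 and 82.0 kb inside the RefSeq spans of these genes, beside internal start sites. Usp54, a gene of the ubiquitin protease family, had 14.8 to 21.7 CPM with Dex, 4.36 to 4.89 CPM with IL4 and 5.78 to 7.01 CPM with vehicle. Fpr1, the formyl peptide receptor of phagocytes, differed in kind: it had 5.55 to 10.3 CPM with Dex and 6.58 to 10.5 CPM with vehicle, and 1.52 to 2.33 CPM with IL4. Against vehicle the Fpr1 peak fell with IL4 (-2.04 ± 0.21) and its Dex difference of -0.25 ± 0.17 did not pass the test.

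Some large changes lay in stretches of neighbouring peaks, and the 3 longest in each direction are described. With gaps of at most 25 kb, 1872 runs of tested peaks that were all 2-fold or more higher with IL4 held 4505 of the 13496 such peaks. Toward Dex, 258 runs held 650 of 2527. More 2-fold peaks give more chances of a run, so the run counts do not compare clustering between the directions. The longest IL4 run held 14 peaks at chr5:17770466-17816121, reaching into Cd36, the scavenger receptor for oxidised lipids. Its summed level was 67.9, 80.6, 80.5 and 86.1 CPM with IL4 and 18.5, 19.4, 25.9 and 29.5 CPM with Dex. A run of 12 peaks at chr12:17583886-17623879 lay beside Odc1, the first enzyme of polyamine synthesis, and Hpcal1. A run of 11 peaks at chr9:7343233-7362855 covered Mmp12, the macrophage elastase, with a median log2 fold change of 3.77 and a summed level of 85.7 to 113 CPM with IL4 and 16.9 to 19.6 CPM with Dex. All 16 peaks nearest to Mmp12 were higher with IL4. Toward Dex, 9 peaks at chr13:37048715-37109671 lay at F13a1, the coagulation factor XIII A chain, with 76.7 to 87.1 CPM with Dex and 22.3 to 25.0 CPM with IL4. The other two of the 3 longest Dex runs were at Fkbp5. One of 8 peaks at chr17:28386184-28421130 overlapped the 3′ part of the gene, and one of 7 peaks at chr17:28510516-28528426 lay upstream of it, with 256 to 305 CPM with Dex and 40.3 to 47.6 CPM with IL4.

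Some genes were surrounded by peaks of one direction. Fam198b (15 of 23 peaks 2-fold or more higher with IL4), Ado (15 of 25), Inhba (13 of 26), Fat3 (13 of 28) and P2ry1 (12 of 21) had the most toward IL4 and none at that size toward Dex. Inhba encodes the activin A subunit, and P2ry1 an ADP receptor. Ado lies next to Egr2, and all 25 of its peaks were called higher with IL4. The peaks the table gives to Egr2 itself numbered 14, of which 2 were higher with IL4 and 3 with Dex. Toward Dex, Klhl6 (9 of 15), Fkbp5 (8 of 16), Zbtb16 (7 of 10), Tsc22d3 (7 of 15) and Cd163 (6 of 8) had the most.

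**Figure D3:**
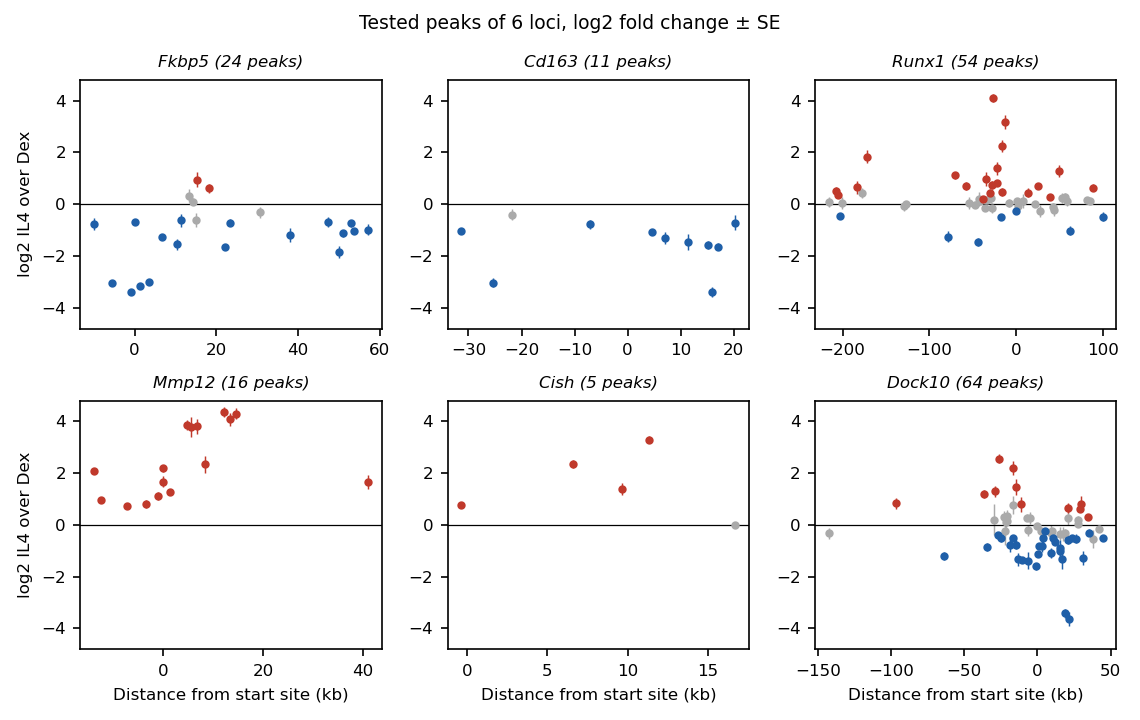
Log2 fold change of IL4 over Dex (± SE) of each tested peak nearest to 6 genes, by its distance in kb from the nearest listed start site; red peaks were called higher with IL4, blue higher with Dex, and grey were not called. At Cd163 (10 of 11) and Fkbp5 (18 of 24) most peaks are blue, at Mmp12 all 16 are red, and Runx1 and Dock10 hold strong peaks of both colours.

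Other genes carried both kinds of peak. Of 16593 genes with a tested peak in the authors' table, 8390 had at least 1 peak higher with IL4, 9005 had at least 1 higher with Dex and 4504 had both. At 2-fold or more the numbers were 5119, 1213 and 473. Genes with more peaks have more chances to hold both. Dock10, Fggy, Fosl2, Foxp1, Itga9, Kcnj2, Lpin1, Runx1, Sbf2, Slc7a11 and Vav3 each had 3 or more 2-fold peaks in both directions. Runx1 encodes a transcription factor of blood cells. A peak 26.3 kb before its start site had 20.6, 24.7, 23.6 and 21.5 CPM with IL4 and 1.33, 1.47, 1.06 and 1.39 CPM with Dex (4.11 ± 0.14; edgeR adjusted p = 8.29e-31), while a peak 43.8 kb before it had 1.76 to 3.03 CPM with IL4 and 5.69 to 6.79 CPM with Dex (-1.46 ± 0.17; edgeR adjusted p = 1.17e-10). Near Pias1, a SUMO ligase that restrains STAT proteins, 2 neighbouring peaks differed in opposite directions. The one 28.7 kb before its start site had 3.94 to 5.41 CPM with IL4 and 0.183 to 0.898 CPM with Dex (3.29 ± 0.25), and the one 25.5 kb before it had 2.63 to 3.70 CPM with IL4 and 7.98 to 9.22 CPM with Dex (-1.34 ± 0.14). Klf7 and Cry1 also had 1 named peak in each direction.

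Gene lists were read against all 71801 tested peaks with a gene in the authors' table, of which 28.2% were higher with IL4 and 24.3% with Dex, with a median log2 fold change of -0.02. A value after a gene name is that of its named peak in that direction, and other peaks near the same gene can differ the other way. The 33 genes of the IL4 and STAT6 list had 286 peaks, 131 higher with IL4 and 49 with Dex, with a median of 0.25. At 2-fold or more the split was 72 to 1, beside 9111 (12.7%) to 1617 (2.25%) over all peaks with a gene, and the 1 peak was near Klf4 (-1.08 ± 0.23). The strongest of the list besides Mmp12 was in Il31ra, a cytokine receptor gene, with 21.3 to 26.8 CPM with IL4 and 1.47 to 1.89 CPM with Dex (3.77 ± 0.13). Of the 33 genes, 13 had peaks higher with IL4 only, 17 had both kinds and 2 had peaks higher with Dex only. These 2 were Alox15 (4 of 4 peaks) and Ccl24 (2 of 3). Tissue repair and matrix genes had 78 of 159 peaks higher with IL4 and 32 with Dex (median 0.28), led by Mmp12 and Spp1 (4.08 ± 0.24), the gene of osteopontin. Macrophage fusion genes had 46 of 97 higher with IL4 and 15 with Dex (median 0.29). These were led by Atp6v0d2 and Cd9 (2.14). Cd81 (-1.77 ± 0.14) had 2 of 4 peaks higher with Dex and 1 higher with IL4. Acp5 had 2 of 4 peaks in each direction. Arginine and polyamine genes had 25 of 72 higher with IL4 and 12 with Dex, with Odc1 (3.15) and the arginine transporter Slc7a2 (2.30) in front.

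The glucocorticoid target list had 305 peaks in 30 genes, 124 higher with Dex and 71 with IL4, with a median of -0.20. Of these genes 9 had peaks higher with Dex only, 3 with IL4 only and 17 had both kinds. The 10 iron and haem genes had 20 of 41 peaks higher with Dex and 5 with IL4 (median -0.21), the strongest in Cd163 and at the start site of Hp, haptoglobin, with 16.3 to 20.2 CPM with Dex and 6.27 to 8.38 CPM with IL4 (-1.23 ± 0.11). Toward IL4 the iron list held peaks near Tfrc, the transferrin receptor (2.31), and Slc40a1, the iron exporter ferroportin (1.81). Chemokines and their receptors had 38 of 97 peaks higher with Dex and 19 with IL4. Peaks near Ccr1 (-1.60) and Ccr2 (-1.08) were higher with Dex, and single peaks near Ccl9 (1.84) and Ccl2 (1.73) higher with IL4, although 3 of the 7 Ccl9 peaks were higher with Dex and 1 with IL4. KLF family genes had 59 of 159 higher with Dex and 39 with IL4. The NF-kB list had 67 of 198 higher with Dex and 53 with IL4: peaks near Il6 (-1.36) and Nfkbiz (-1.29) had less signal with IL4, and peaks near Nfkb1 (3.39) and Tlr4 (2.05) more. AP-1, EGR and MYC factor genes had 87 of 233 higher with Dex and 69 with IL4, with single peaks near Fos (-2.24) and Egr1 (-1.39) on the Dex side and near Jun (3.52) and Batf (2.74) on the IL4 side. Of 30 Jun peaks, however, 13 were higher with Dex and 5 with IL4. The list counts moved with the scaling. Under total counts 62.9% of the calls over all tested peaks were toward IL4, against 50.8% in the main fit. The IL4 side was then larger for KLF genes (45 to 43 peaks) and the NF-kB list (59 to 50). It was also larger for AP-1, EGR and MYC factor genes (83 to 69). The shares of these 3 lists higher with Dex were 27.0%, 25.3% and 29.6%. For all peaks of the authors' table that share was 38.7% within 1 kb of a start site and 14.7% further away. The list counts thus moved together with the background. The Dex side stayed larger for glucocorticoid targets (106 to 80), iron and haem genes (17 to 10) and chemokines and their receptors (28 to 21).

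Lipid genes leaned to IL4, with 59 of 158 peaks higher and 36 lower. Near Lpl, lipoprotein lipase, a peak had 10.3 to 12.05 CPM with IL4 and 0.367 to 1.82 CPM with Dex (2.98 ± 0.17), and Acadm (2.97), a fatty acid oxidation gene, had a peak of the same size, while Acadl (-2.34) and Plin2 (-1.29) had peaks higher with Dex. Scavenger and efferocytosis genes were mixed, at 74 and 57 of 207, with peaks near Itgb3 (3.87) and Msr1 (2.92) toward IL4 and near Cd163 and Marco (-1.18) toward Dex. All 16 Itgb3 peaks were higher with IL4, while of 17 Msr1 peaks 6 were higher with Dex and 4 with IL4. Antigen presentation had 16 and 12 of 61 (26.2% and 19.7%), near the shares over all peaks with a gene (28.2% and 24.3%). Among these, peaks near Ciita (1.92), the master regulator of MHC class II, and H2-Aa (1.42) were higher with IL4. Peaks near Ctss (-0.65) and Cd86 (-0.58) were higher with Dex. Ctss had 3 of 7 peaks higher with IL4 and that 1 higher with Dex. Interferon-stimulated genes had 17 of 63 (27.0%) higher with IL4, near the 28.2% over all peaks with a gene. They had 7 (11.1%) higher with Dex, below the 24.3% over all peaks with a gene. Their median of -0.10 became 0.02 under total counts. IL4 signalling genes had 24 and 27 of 112, and Il4ra, the IL4 receptor chain, had 1 peak higher with IL4 (2.71 ± 0.25) and 3 higher with Dex. The clock list had 22 and 17 of 70, with 1 peak named near Arntl (1.69) toward IL4 and 1 near Per2 (-2.11) toward Dex, although Arntl had 4 and 5 peaks in the 2 directions and Per2 had 2 in each. Cell cycle genes had 27 and 30 of 113 (23.9% and 26.5%) and macrophage lineage genes 78 and 66 of 256 (30.5% and 25.8%). The genes of GR and its cofactors had 26 and 19 of 97 (26.8% and 19.6%). These shares were close to those over all peaks with a gene. Under total counts, where all calls moved toward IL4, the cell cycle list had 32 and 23 and the IL4 signalling list 30 and 20.

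**Figure D4:**
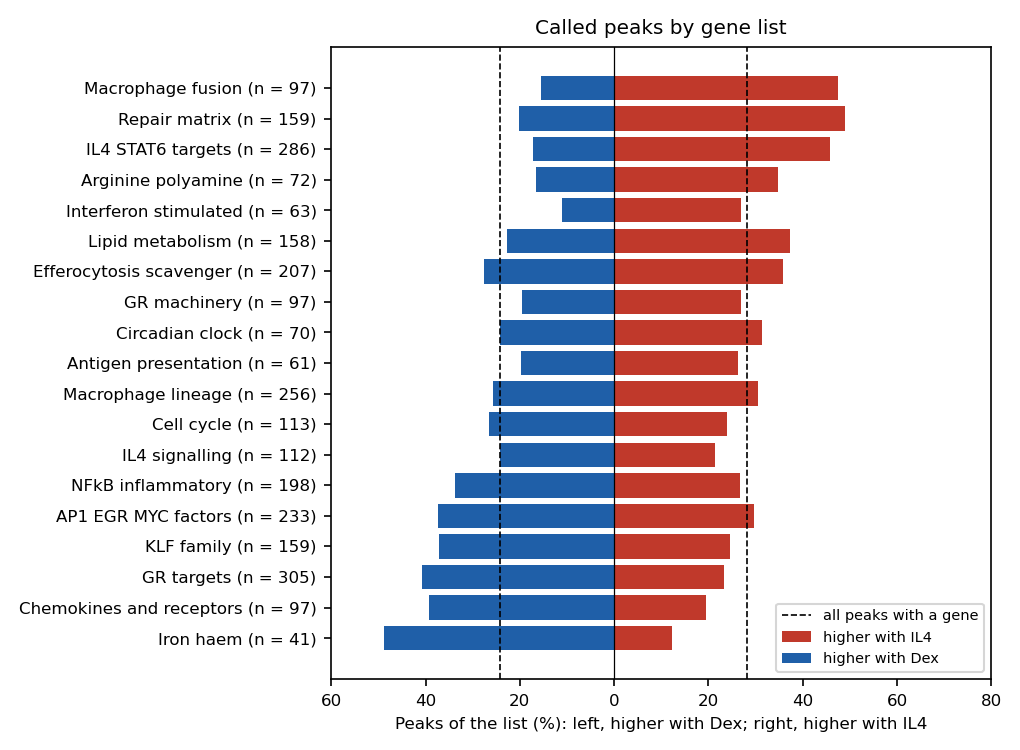
Share of the tested peaks of each gene list called higher with IL4 (red, right) and higher with Dex (blue, left), in percent, with n the number of peaks and dashed lines at the shares of all peaks with a gene (28.2% and 24.3%). The fusion, repair and IL4 lists reach furthest right beyond the line and the iron and GR target lists furthest left.

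Distance from a start site moved with the direction. Within 1 kb of a listed start site, 8.80% of 6953 peaks were higher with IL4 and 53.5% higher with Dex, with a median of -0.27. Beyond 100 kb the shares were 36.2% and 17.6% of 6914 peaks. The differences at start sites were small: 3.32% of those peaks were 2-fold or more higher with IL4 and 0.920% higher with Dex. They also moved with the scaling, since the share higher with Dex was 38.7% under total counts and 28.1% under loess offsets, which remove a trend with level. Level moved with this pattern too. Peaks were divided by level into 5 classes of equal size. In the highest class 58.9% were higher with Dex and 14.5% with IL4, against 6.13% and 25.9% in the lowest class. Within the highest class the peaks over 1 kb from a start site still differed from those near one, with 47.5% and 80.6% higher with Dex. Whether level or position carries the pattern was not tested. The authors' table holds no peak longer than 999 bases, while 13379 of the 47694 tested peaks it leaves out have 1000 bases or more. With the peaks it leaves out given the nearest listed start site, 13462 peaks lay within 1 kb of one, of which 7.05% were higher with IL4 and 57.3% higher with Dex.

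**Figure D5:**
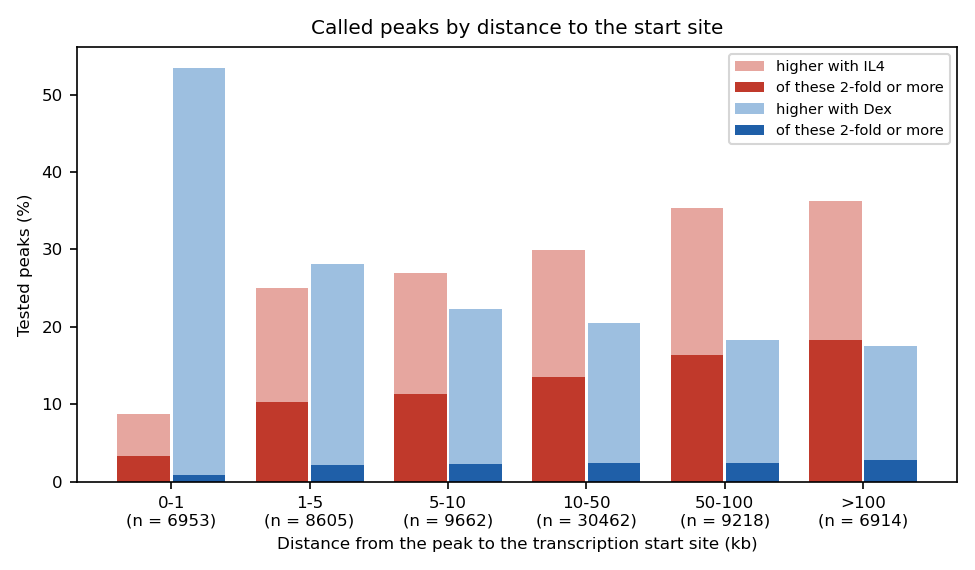
Share of the tested peaks of the authors' table (%) called higher with IL4 (light red) and higher with Dex (light blue) by distance to the start site in kb, with dark bars for those of 2-fold or more. The light blue bar falls from 53.5% within 1 kb to 17.6% beyond 100 kb, while the light red bar grows from 8.80% to 36.2%.

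Promoter sequences could be set beside the calls for 14004 RefSeq windows of 300 bases (250 before to 50 after the start) of which at least 150 bases lie under a tested peak. Of these windows 643 lay under peaks higher with IL4 and 9797 under peaks higher with Dex. The STAT6 pattern (TTC and GAA with 4 bases between, either strand) was in 11.04% of the former and 4.69% of the latter, against 5.40% of the windows over a tested peak and 6.94% of all 32817 windows. The AP-1 pattern TGANTCA was in 15.6% and 4.58%, against 5.80% of the windows over a tested peak, the background given from here on. The RUNX pattern TGTGGTT was in 10.4% and 3.44% against 3.95%, and the PU.1 pattern GAGGAAGT in 6.69% and 3.42% against 3.78%. The KLF pattern CCNCNCCC went the other way, at 56.1% and 70.5% against 68.5%, so the share under peaks higher with Dex was close to the background. The GR monomer site AGAACA was in 16.8% and 11.2% against 12.1%, and the full palindrome, a looser pair of such sites 3 bases apart, in 0.156% and 0.255% against 0.257%. Among the 83 windows under peaks 2-fold or more higher with Dex the monomer site was in 24.1% (20 windows) and the palindrome in 2.41% (2 windows). Among the 163 windows of that size toward IL4 the shares were 18.4% and 0%. The STAT6 pattern was in 6.02% of the windows 2-fold or more higher with Dex and 14.1% of those toward IL4. Windows can overlap or share a peak, since the 14004 windows lie over 10923 tested peaks. GC content moved with these groups, with a median of 54.0% in the windows higher with IL4 and 62.3% in those higher with Dex. Its part in the shares was not tested.

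Vehicle libraries did not enter the choice of peaks. On a log scale the vehicle mean lay nearer to Dex than to IL4 at 81.7% of the 13496 peaks that were 2-fold or more higher with IL4. It lay nearer to IL4 at 61.1% of the 2527 peaks that were 2-fold or more higher with Dex. Over all calls the picture differed for Dex, with the vehicle mean nearer to Dex at 73.4% of the 28951 peaks higher with IL4 and also nearer to Dex at 62.2% of the 28075 peaks higher with Dex. At 18.0% of the 2-fold peaks higher with IL4 the vehicle mean was below both treatments, as at the Arg1 peak 25.4 kb before its start. It was above both at 1.40%. Median levels over the peaks higher with IL4 by 2-fold were 3.19 CPM with IL4, 1.35 with vehicle and 0.986 with Dex, and over those higher with Dex by 2-fold 1.67 CPM with IL4, 2.37 with vehicle and 4.51 with Dex. Against vehicle, IL4 changed 45087 of 121170 tested peaks (37.2%) and Dex 21801 (18%). These comparisons share the vehicle libraries. Mmp12 differed from vehicle under both treatments in opposite directions: its named peak rose with IL4 (2.65 ± 0.16) and fell with Dex (-1.72 ± 0.28). The same was so for the Lpl peak (1.43 ± 0.15 and -1.54 ± 0.21) and the upstream Runx1 peak (2.94 ± 0.13 and -1.16 ± 0.22). The Cd81 peak fell with IL4 (-0.93 ± 0.16) and rose with Dex (0.83 ± 0.13).

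KO macrophages gave the same contrast in libraries that the WT comparison did not use. There 54067 of 122953 tested peaks (44%) were called. Of 28188 peaks higher with IL4 in WT and tested in both genotypes, 98.6% had the same sign in KO and 80.4% were called in the same direction. Of 27962 peaks higher with Dex, 98.3% and 76.4% were. For 2-fold peaks the shares called were 94.9% and 88.6%, and none was called in the opposite direction. The Zbtb16 peak had a log2 fold change of -4.00 ± 0.14 in KO, the Fkbp5 peak -3.14 ± 0.10, the Cish peak 3.42 ± 0.12, the Itgax peak 3.12 ± 0.14 and the Smurf1 peak 4.62 ± 0.25. The peaks that went against their label in WT had the same sign in KO, with the Sgk1 peak at 1.87 ± 0.18, the internal Mertk peak at 1.60 ± 0.15 and the named Chil3 peak at -1.11 ± 0.13. A test of the difference between genotypes called 5 of 129024 peaks (0.00388%) by edgeR, with 6128 at an unadjusted p below 0.05. At chr9:55294966-55295299, 11.5 kb before Nrg4, the WT libraries had 7.89 to 8.33 CPM with IL4 and 0.734 to 2.45 CPM with Dex, while the KO libraries had 1.58 to 1.81 and 1.41 to 2.12 CPM. At chr8:54272947-54273591, far from Vegfc, the KO libraries had 7.30 to 9.91 CPM with IL4 and 1.30 to 2.67 CPM with Dex, while the WT libraries had 13.8 to 18.0 and 9.35 to 13.9 CPM. The remaining 3 were at chr9:62372400-62374281 inside Anp32a, at chr9:63927777-63928824, and at chr11:24295023-24295703.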

How the data were processed

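ATAC-seq reads per peak were deposited by the authors as raw counts, and their table of comparisons gives log2 fold changes, gene names and distances to start sites, per the file headers. Tools listed in the submitters' processing notes, with no role given, are MACS2, featureCounts, Bowtie2, fastp, edgeR and SAMtools, and the build is mm10. From the counts of the 8 WT libraries, peaks were filtered with filterByExpr, scaled with TMM factors over all 24 libraries and tested with edgeR 4.0.16 (R 4.3.3; quasi-likelihood, robust, no block), with Benjamini-Hochberg adjustment over all tested peaks and calls at an adjusted p below 0.05. SE is the log2 fold change over the square root of F. Levels are CPM on the TMM-scaled totals. A positive log2 fold change means higher with IL4. The KO fit, the genotype difference (16 libraries) and the vehicle comparisons were made in the same way. The deposited log2 fold changes served as a check of scale. A replicate block, DESeq2 1.42.0, other scalings and filters, thinning and leaving out libraries were alternatives.

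Peaks were named by a rule. In each direction it takes the 10 largest changes with at least 2 CPM in the higher group and groups that do not overlap, and 6 such peaks within 1 kb of a start site. It adds the 5 genes with most 2-fold peaks, the 3 longest runs, the 2 largest genes of each list, the landmark genes by their smallest p among peaks of the authors' table, and the 3 largest peaks outside the authors' table. Members and lists were chosen with earlier results of these data known. The script was tested on simulated data. The values of 1 named peak are not reported here.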

Additional observations from a re-analysis of the deposited data

Results flagged for a closer look

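Among the 318 groups of 4 libraries tested at the named peaks reported here, 22 held a library far from the other 3, and chance gives about 1 in 20. By library, the IL4 replicates 1 to 4 accounted for 6, 2, 4 and 3 of them and the Dex replicates for 1, 3, 1 and 2.

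In IL4 replicate 1 the Cry1 peak had 4.60 CPM against 3.20 to 3.44 in the other IL4 libraries. That library was lower than the others at Klf9 (5.92 against 6.27 to 6.29), Iqck (0.904 against 1.40 to 1.48), Mctp2 (0.411 against 0.833 to 0.910), Ccr1 (1.31 against 2.04 to 2.12) and Ntm (1.73 against 2.87 to 2.97). IL4 replicate 2 was higher at Klf7 (3.43 against 1.89 to 2.13) and Klf1 (23.2 against 21.4 to 21.7). IL4 replicate 3 was higher at Itga2b (33.5 against 29.4 to 30.1), Gata3 (3.44 against 2.30 to 2.41), Fam198b (6.27 against 4.81 to 5.01) and Klrb1a (18.6 against 14.8 to 15.4). IL4 replicate 4 was higher at Notch4 (3.33 against 2.53 to 2.63) and lower at Cdkn2a (1.76 against 2.21 to 2.30) and Gpnmb (9.35 against 10.9 to 11.2).

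Among the Dex libraries, replicate 1 was higher at Fpr1 (10.3 CPM against 5.55 to 6.03). Replicate 2, the shallowest library, was higher at Ctss (29.2 against 28.6) and Cd9 (1.83 against 1.07 to 1.19) and had 0 reads at the Mmp12 peak against 0.770 to 0.816 CPM. Replicate 3 was higher at Pias1 (9.22 against 7.98 to 8.17), and replicate 4 at Itgb3 (0.510 against 0.163 to 0.210) and Cxcr2 (1.02 against 0.490 to 0.550).

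The contrast of IL4 and Dex differed between genotypes at 5 peaks by the edgeR test of the difference, given as the KO minus the WT log2 fold change. The difference was -2.61 ± 0.30 (SE) at chr9:55294966-55295299 near Nrg4, where the log2 fold change was 2.48 in WT and -0.13 in KO. It was 1.76 ± 0.20 at chr8:54272947-54273591, 196 kb from Vegfc, where the log2 fold change was 0.42 in WT and 2.18 in KO. At chr9:63927777-63928824 it was 1.90 ± 0.25, from -0.10 in WT to 1.80 in KO. At chr11:24295023-24295703 it was -1.04 ± 0.19 (edgeR adjusted p = 0.0234), and at chr9:62372400-62374281, inside Anp32a, 0.71 ± 0.14 (edgeR adjusted p = 0.0436).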

How the results depend on the processing

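Peaks higher with IL4 numbered 26700 to 29933 and those higher with Dex 25297 to 27826 when 1 WT library was left out. Thinning every library to the lowest total gave 18166 and 20844, with fewer peaks tested, and fitting only the peaks of the authors' table gave 18479 and 21769, of which 8311 and 2034 at 2-fold or more. DESeq2 gave 24354 and 21450, and total counts 34138 and 20158. The genotype difference rested on few peaks. Those larger in KO numbered 3, 5 with a replicate block and 2 to 4 with 1 library left out. Those smaller in KO numbered 2, 5 under total counts, 4 with a replicate block and 1 to 6 with 1 library left out. Same-numbered IL4 and Dex libraries deviated together with r of 0.195, 0.0623, 0.0555 and 0.0814, each IL4 library correlating best with its own number, and the labels give no pairing. A replicate block gave 30287 and 30115. Leaving out both WT libraries numbered 1, an alternative chosen after seeing the data, gave 27923 and 26584.

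Of 3346 alternative values of the 160 named peaks, 3324 had the direction and side of the threshold reported, and 16, at Gata3, Cd22, Sat1 and S100a9, lost their call. The uncalled Socs2 value of 0.03 ranged from -0.13 to 0.18 with 1 library left out, below 0 without IL4 replicate 4, Dex replicate 2 or Dex replicate 3. It was -0.0949 with loess offsets, -0.0782 after thinning and -0.0485 with the peaks of the authors' table alone. The cause was not tested. Depth limits peaks of low level, such as Retnla and Chil4. A motif search over whole peaks was not run.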
